A study of Homo sapiens with 9 samples.

Results

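The aldo-keto reductases described here are 6 human genes, AKR1A1, AKR1B1, AKR1B10, AKR1C1, AKR1C2 and AKR1C3, of the 60880 gene IDs in the count tables. They were chosen from a list of symbols, which was selected on earlier results of these same libraries, and each matched 1 Ensembl ID. Poly-A RNA was sequenced from SNU5, an established cell line of human gastric carcinoma for which the labels give no engineered allele, after 24 h with one of 3 agents. The NR group received ramucirumab, a monoclonal antibody against the receptor VEGFR2, linked through polyethylene glycol to gold nanorods. The SP group received the same antibody linked in the same way to gold nanospheres, and the Ab group received the antibody alone. Every group received 8 μg/mL of antibody, so that the antibody is shared by every library and no group shows the cells without it. Each group had 3 libraries, 9 in all, which the paper calls biological replicates. The study's reporting summary says that its in vitro work was repeated independently 3 or more times, without naming these libraries. The labels do not say whether the libraries came from separate cultures, and if they did not, the p-values below measure technical spread between libraries. The NR libraries held 25735410, 13863155 and 15943980 counts in total, the SP libraries 21682836, 22914759 and 20601906, and the Ab libraries 19566064, 26318227 and 21031024. The gold libraries also stood apart from the Ab libraries in genes that mark cell types, such as LUM and CDH5, whose values are given at the end. Whether the gold and Ab libraries came from the same culture of SNU5 is not given in the sources used here, so that in every fold against Ab a difference between cultures and the effect of the particle cannot be told apart.

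Aldo-keto reductases are soluble enzymes that use NADPH to reduce aldehydes and ketones to alcohols. AKR1A1 is aldehyde reductase, which handles small aldehydes and glucuronate, and AKR1B1 is aldose reductase, which converts glucose to sorbitol. AKR1B10 is a close relative of AKR1B1 that reduces retinaldehyde and lipid aldehydes, and it is known as a gene raised in several carcinomas. The AKR1C enzymes are hydroxysteroid dehydrogenases: AKR1C1 inactivates progesterone, AKR1C2 inactivates dihydrotestosterone, and AKR1C3 makes testosterone and prostaglandin F. Several members are known targets of the transcription factor NRF2, which acts on genes of the response to oxidants and electrophiles.

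The AKR1C genes lie side by side on chromosome 10 and are near copies of one another, which bears on every count given for them. The coding parts of their first coding exons are shown for how little separates the copies. They come from the GENCODE release 44 transcripts on GRCh37 and are written 5′ to 3′ on the gene's own strand, and capitals mark bases that differ from AKR1C1. The exon parts lie at chr10:5005637-5005720 (plus strand) for AKR1C1, chr10:5045944-5046027 (minus strand) for AKR1C2, chr10:5136637-5136720 (plus strand) for AKR1C3 and chr10:5238831-5238914 (plus strand) for AKR1C4, a liver enzyme of the same cluster that is not one of the 6 members.
AKR1C1: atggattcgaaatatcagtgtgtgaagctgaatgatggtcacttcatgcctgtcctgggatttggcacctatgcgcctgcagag
AKR1C2: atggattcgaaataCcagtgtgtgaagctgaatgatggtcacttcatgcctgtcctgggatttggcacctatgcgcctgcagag
AKR1C3: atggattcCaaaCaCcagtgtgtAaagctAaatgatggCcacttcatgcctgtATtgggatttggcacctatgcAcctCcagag
AKR1C4: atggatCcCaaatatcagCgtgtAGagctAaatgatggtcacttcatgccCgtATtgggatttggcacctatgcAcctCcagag

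Over these 84 bases AKR1C2 differed from AKR1C1 at 1 base, AKR1C3 at 10 and AKR1C4 at 11. Over the whole coding sequence of 969 bases, AKR1C1 and AKR1C2 were 98.0% identical, with 19 mismatches. AKR1C3 was 91.4% identical to AKR1C1 and 91.0% to AKR1C2, and AKR1C4 was 87.8% to 88.5% identical to the other 3. The study sequenced paired 150-base reads, and a window of 150 bases, taken as 1 read without its mate, can be shared exactly between copies. Of the 150-base windows of the reference transcripts, 17.2% for AKR1C2, 7.91% for AKR1C1 and 2.12% for AKR1C3 also occurred in a transcript of another AKR1C gene, against 0 of 1043 windows for AKR1C4 and 0 windows for AKR1A1, AKR1B1 and AKR1B10. The longest identical coding stretch was 186 bases between AKR1C1 and AKR1C2 and 171 bases between AKR1C2 and AKR1C3. The split of reads between AKR1C1 and AKR1C2 is therefore uncertain, although most windows of each, as of AKR1C3, were its own. The AKR1B pair on chromosome 7 was 76.1% identical and shared no window, as the coding parts of the first coding exons show, with capitals for bases of AKR1B10 that differ from AKR1B1 (chr7:134143749-134143814 on the minus strand for AKR1B1 and chr7:134212664-134212729 on the plus strand for AKR1B10).
AKR1B1: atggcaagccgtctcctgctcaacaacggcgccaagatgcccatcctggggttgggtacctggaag
AKR1B10: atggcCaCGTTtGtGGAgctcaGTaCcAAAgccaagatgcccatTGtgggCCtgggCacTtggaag

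AKR1C3 had the largest fold between the gold groups and Ab among the 5 members tested there, AKR1B10 having too few counts for the test. Its gene lies at chr10:5077546-5149878 on the plus strand of GRCh37, the build of all gene positions given here. The NR libraries held 3277, 1919 and 2006 counts, the SP libraries 2745, 2715 and 2668, and the Ab libraries 100, 158 and 113. All 6 gold libraries lay far above all 3 Ab libraries, and NR and SP overlapped. As CPM, which divides counts by the TMM-adjusted library total, the level was 131 ± 6.66 (SD, n = 3) in NR, 125 ± 5.86 (SD, n = 3) in SP and 5.49 ± 0.427 (SD, n = 3) in Ab. The fitted fold was 23.1 in NR against Ab and 22.2 in SP against Ab, with log2 fold changes of 4.53 (SE 0.076, 95% interval 4.38 to 4.69) and 4.47 (SE 0.079, 95% interval 4.31 to 4.63). Of its exon bases, 2.15% overlapped another annotated gene, and whether the counting used strand is not given in the sources used here.

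AKR1C2 and AKR1C1 were also low in Ab. AKR1C2, at chr10:5029967-5060223 on the minus strand, had 542, 261 and 284 counts in NR, 342, 354 and 374 in SP and, in the Ab libraries, 20, 43 and 24. Its fold was 14.6 in NR against Ab (log2 3.87, SE 0.16, 95% interval 3.55 to 4.19) and 12.4 in SP against Ab (log2 3.64, SE 0.16, 95% interval 3.31 to 3.96). The gold and Ab libraries did not overlap. AKR1C1, at chr10:5005445-5025475 on the plus strand, had 367, 185 and 170 counts in NR, 258, 235 and 283 in SP and, in the Ab libraries, 30, 40 and 15. Its fold was 9.90 in NR against Ab (log2 3.31, SE 0.20, 95% interval 2.90 to 3.71) and 9.23 in SP against Ab (log2 3.21, SE 0.19, 95% interval 2.81 to 3.61). No gold library of AKR1C1 came near an Ab library, the nearest pair being 10.3 CPM in SP library 2 and 1.54 CPM in Ab library 1. With the counts of AKR1C1, AKR1C2 and AKR1C3 summed, so that reads assigned to the wrong copy among these 3 no longer matter, the log2 fold change was 4.30 in NR and 4.22 in SP against Ab.

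**Figure D1:**
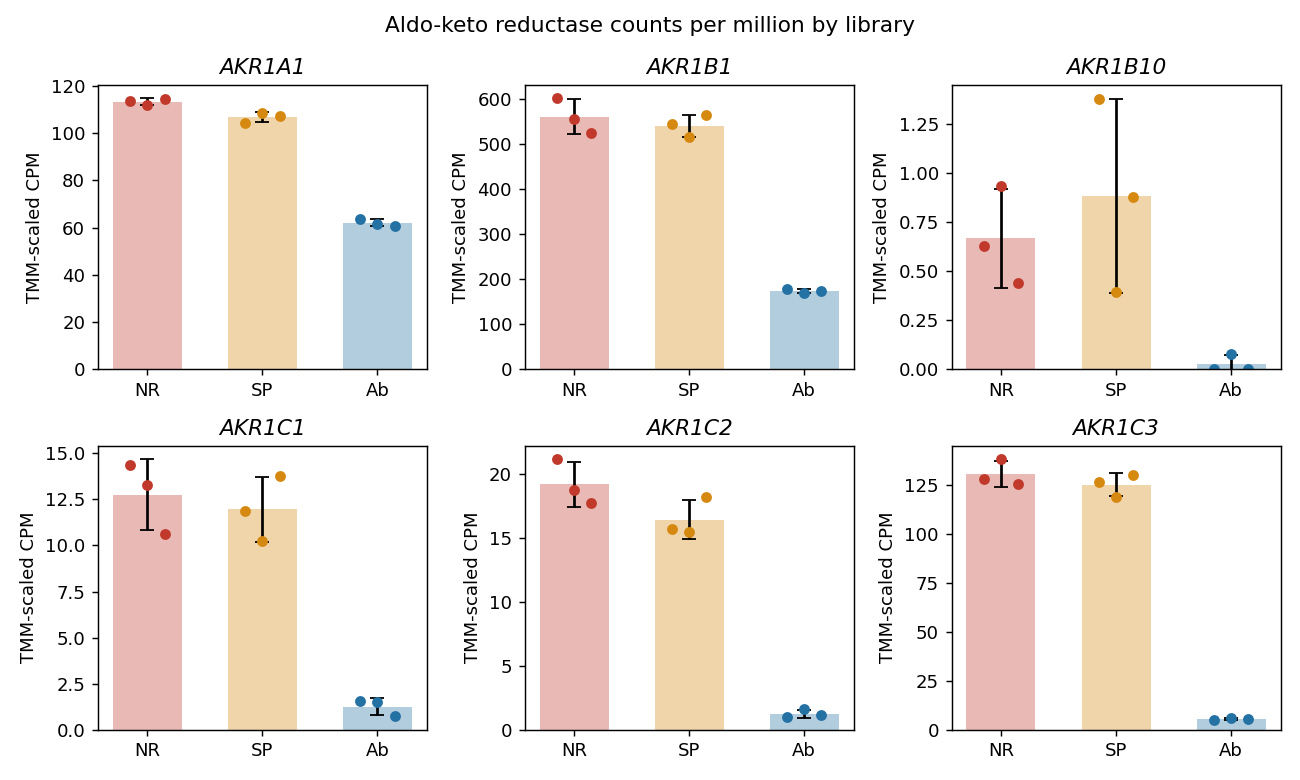
TMM-scaled CPM of each of the 6 genes (vertical axis, linear from 0, a separate scale per gene) in the NR, SP and Ab groups. Points are the 3 libraries of a group, bars their mean and error bars the SD, and for each gene all 6 gold libraries sit above all 3 Ab libraries.

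AKR1C3 took most of the reads of the trio in every library. Its share of the summed counts was 78.3%, 81.1% and 81.5% in the NR libraries, 82.1%, 82.2% and 80.2% in the SP libraries, and 66.7%, 65.6% and 74.3% in the Ab libraries. The Ab shares lay below the 6 gold shares, and they rest on summed counts of only 150, 241 and 152.

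**Figure D2:**
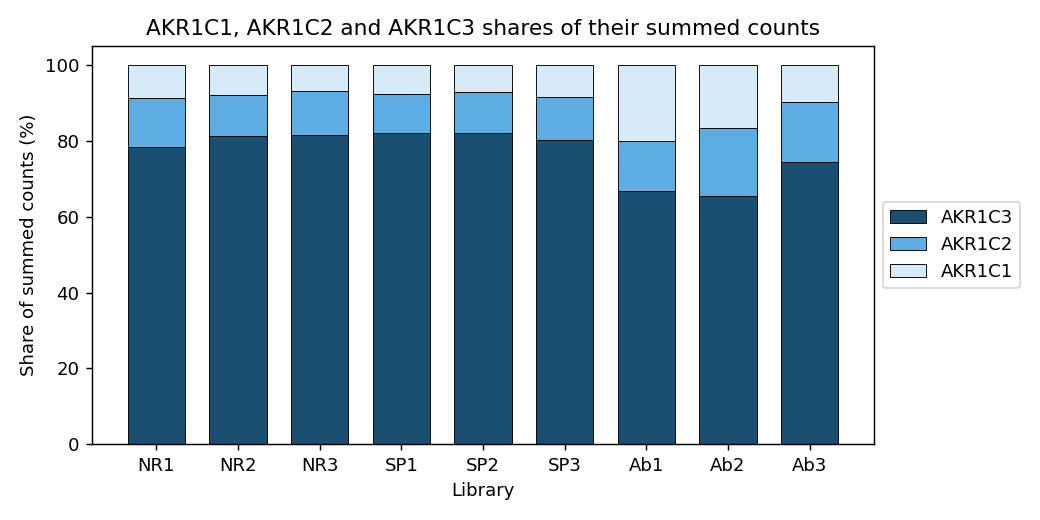
Share of the summed AKR1C1, AKR1C2 and AKR1C3 counts taken by each gene (vertical axis, percent) in each of the 9 libraries (horizontal axis). The AKR1C3 segment fills 78.3% to 82.2% of the bar in the gold libraries and 65.6% to 74.3% in the Ab libraries.

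AKR1B1, the aldose reductase, was the most abundant member per length in every library. The gene lies at chr7:134127108-134144036 on the minus strand. Its counts were 15393, 7731 and 8398 in the NR libraries, 11840, 11807 and 11585 in the SP libraries, and 3466, 4452 and 3618 in the Ab libraries. The level was 561 ± 38.8 CPM (SD, n = 3) in NR, 541 ± 24.7 CPM (SD, n = 3) in SP and 173 ± 4.79 CPM (SD, n = 3) in Ab, so that the gold groups overlapped each other and not Ab. The fold was 3.19 in NR against Ab (log2 1.67, SE 0.048, 95% interval 1.58 to 1.77) and 3.08 in SP against Ab (log2 1.62, SE 0.047, 95% interval 1.53 to 1.72).

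AKR1B10, next to AKR1B1 at chr7:134212319-134226164 on the plus strand, was near the detection floor. It had 16, 13 and 7 counts in NR, 30, 9 and 18 in SP and, in the Ab libraries, 0, 2 and 0. The detection floor was set at 3 counts, the most that an observed 0 allows by counting error alone, and it corresponded to 0.114 to 0.216 CPM across the libraries. The ratio of the pooled counts, each scaled to its group's total after TMM, was 21.7 in NR against Ab (exact 95% counting interval 5.59 to 186) and 29.3 in SP against Ab (7.74 to 248). These wide intervals come from the 2 counts in Ab, and the gene was left out of both tests against Ab by the filter on low counts. Every gold library nonetheless held more counts than any Ab library.

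AKR1A1, the aldehyde reductase at chr1:46016215-46035721 on the plus strand, differed least. Its counts were 2912, 1556 and 1832 in the NR libraries, 2271, 2490 and 2203 in the SP libraries, and 1243, 1630 and 1273 in the Ab libraries. Scaled, these were 113 ± 1.34 CPM (SD, n = 3) in NR, 107 ± 2.19 CPM (SD, n = 3) in SP and 62.0 ± 1.48 CPM (SD, n = 3) in Ab, with no overlap between either gold group and Ab. The fold was 1.80 in NR against Ab (log2 0.85, SE 0.051, 95% interval 0.74 to 0.95) and 1.69 in SP against Ab (log2 0.76, SE 0.055, 95% interval 0.65 to 0.87), under the 2-fold needed for a call.

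A call needed both an adjusted p up to 0.05 in edgeR's quasi-likelihood test and a 2-fold change or more. Of the 5 members tested against Ab, 4 were called higher in NR, where 12.4% of the 15009 genes tested were called higher and 10.3% lower. The same 4, AKR1B1, AKR1C1, AKR1C2 and AKR1C3, were called higher in SP, where 12.6% of 15068 genes were called higher and 10.6% lower. All libraries of the gold group lay above all Ab libraries for 5 of 5 tested members in both comparisons, beside 38.8% of all genes tested in NR and 39.0% in SP. Since the genes were selected on these libraries and both comparisons use the same Ab libraries, nothing is read from these counts. The median log2 fold change of the 5 tested members was 3.31 in NR and 3.21 in SP, beside -0.005 and -0.007 over all genes tested.

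**Figure D3:**
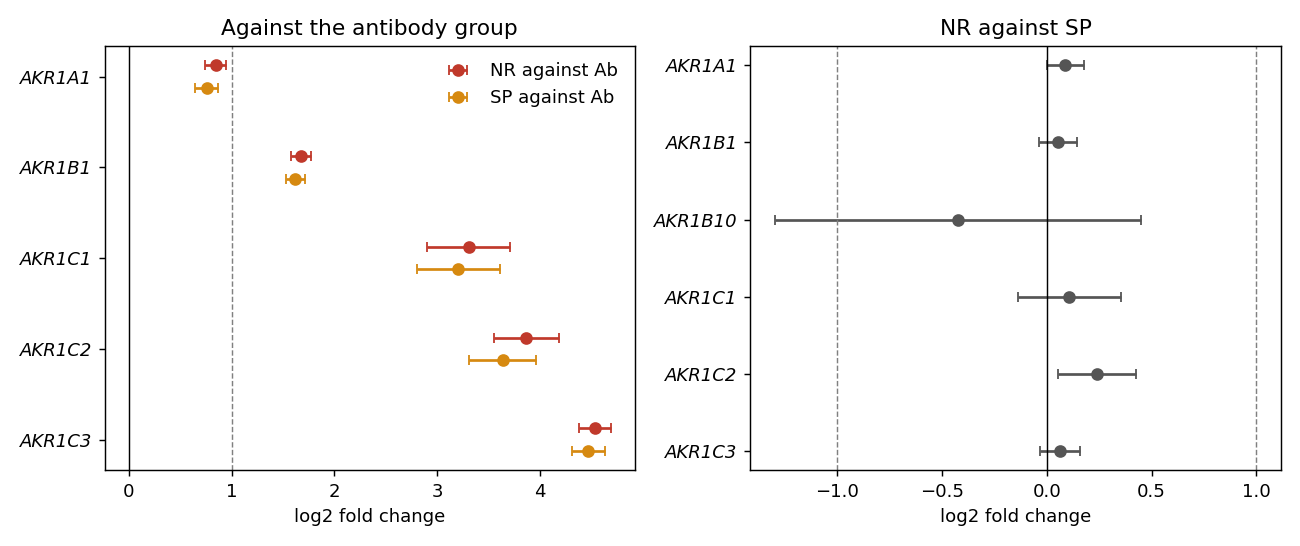
Log2 fold changes (horizontal axes) with 95% intervals for NR and SP against Ab at left, for the 5 members tested there, and for NR against SP at right, for all 6. Dashed lines mark a 2-fold change, and in the left panel AKR1A1 alone lies below it while in the right panel every point lies within it.

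The shape of the gold particle was compared by setting NR against SP, 2 groups that carry the same antibody on a gold core. No member was called. Over all genes, 3 of 14903 tested were called either way (0.0201%), and 66 passed the adjusted p alone (0.443%). The NR to SP log2 difference was 0.06 for AKR1C3 (95% interval -0.03 to 0.16), 0.05 for AKR1B1 (-0.04 to 0.14) and 0.11 for AKR1C1 (-0.14 to 0.35), so that each interval spans 0 and stays under a 1.5-fold change. AKR1A1 was 0.09 higher in NR (95% interval -0.0004 to 0.18), and its 3 NR libraries all lay above its 3 SP libraries, as in 8.21% of all genes tested. For AKR1C2 the difference was 0.24 (95% interval 0.05 to 0.43), and the SP libraries at 15.5 to 18.2 CPM overlapped the NR libraries at 17.7 to 21.2 CPM. For AKR1B10 it was -0.42 (95% interval -1.30 to 0.45), an interval that also holds a 2-fold difference. Since members were chosen on these libraries, no p is given for them.

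To set the genes against one another, counts were divided by the union of each gene's exon lengths and scaled to the same library total (TPM). In NR the mean TPM was 556 ± 30.4 for AKR1B1, 132 ± 2.30 for AKR1A1, 121 ± 6.83 for AKR1C3, 11.5 ± 0.878 for AKR1C2, 5.27 ± 0.736 for AKR1C1 and 1.36 ± 0.519 for AKR1B10 (SD, n = 3 each). The order was the same in SP, at 543, 126, 117, 9.92, 5.0 and 1.83 TPM. AKR1A1 and AKR1C3 are neighbours in this order that barely separate: in NR their libraries ranged from 130 to 134 TPM and from 117 to 129 TPM. With the length of the longest transcript in place of the exon union, AKR1C3 stood above AKR1A1 in both gold groups, so their order depends on the length used. In Ab the order was again AKR1B1 at 187 TPM, AKR1A1 at 78.5, AKR1C3 at 5.56, AKR1C2 at 0.824, AKR1C1 at 0.566 and AKR1B10 at 0.057. AKR1C1 and AKR1C2 could not be told apart there, as their libraries ranged over 0.323 to 0.693 TPM and 0.655 to 1.07 TPM and their reads may be shared. Summed over the 6 genes, the libraries held 769 to 880 CPM in the gold groups and 239 to 249 CPM in Ab.

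Of the 13 other genes of the aldo-keto reductase superfamily, AKR1C4 was also higher in the gold libraries. This hepatic 3-alpha-hydroxysteroid dehydrogenase had 50, 48 and 45 counts in NR, 48, 44 and 39 in SP and, in the Ab libraries, 0, 0 and 0. Taking 3 counts per library as the floor in Ab, it was at least 20.04-fold higher in NR and at least 14.7-fold higher in SP. It passed the filter on low counts only through the gold libraries, so no p is given for it. AKR7A2, which reduces succinic semialdehyde and aflatoxin dialdehyde, rose by 1.56 (SE 0.07) on the log2 scale in NR and by 1.62 (SE 0.06) in SP, with 1077 to 1914 counts in the gold libraries and 491 to 704 in Ab (adjusted p = 5.5e-18 and 9.7e-19). AKR7L fell by 1.08 in NR (adjusted p = 0.0047) and by 1.65 in SP (adjusted p = 5.6e-05), from 34 to 48 counts in Ab to 6 to 33 in the gold libraries. Its NR and Ab libraries overlapped, at 1.29 CPM in NR library 1 and 1.28 CPM in Ab library 2, and no SP library reached an Ab library. Its paralog AKR7A3 had log2 differences of -0.86 and -0.87, and the potassium channel beta subunit KCNAB2 had 0.71 and 0.67, all under 2-fold. KCNAB1 had log2 differences of -0.09 and -0.07 (adjusted p = 0.77 and 0.86). KCNAB3 was tested in NR alone, at -0.52 (adjusted p = 0.29). AKR1B15, AKR1D1, AKR1E2, AKR1C6P, AKR1C7P and AKR1C8 held 0 to 6 counts in every library and were not tested. In all, 2 were called higher, AKR1C4 among them, and 1 lower of 7 tested in NR and of 6 tested in SP. The 3 calls became 5 in SP without SP library 1, and 1 in NR where 10 counts in every library were required, a filter that AKR1C4 cannot pass.

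The protein-coding genes within 500 kb show what lay around the members. Around the AKR1C cluster, CALML3, CALML5, TUBAL3 and UCN3 had 0 counts in every library, and NET1, a guanine nucleotide exchange factor for RhoA, had log2 differences of -0.80 in NR and -0.86 in SP (adjusted p = 2.2e-13 and 6.1e-14), lower where the AKR1C genes were higher but under 2-fold. Around the AKR1B pair, 3 of 6 tested genes were called higher in both comparisons. CALD1, the actin-binding caldesmon, rose by 1.44 (SE 0.06) on the log2 scale in both (adjusted p = 1.2e-14 in NR and 1.6e-14 in SP). EXOC4, a subunit of the exocyst, rose by 1.07 and 1.10. LRGUK had 10 to 27 counts in the gold libraries and 6, 10 and 5 in Ab, and passed the filter on low counts only through the gold libraries, so its call is not read as support. The glycolytic mutase BPGM had 0.38 and 0.32, SLC35B4 had 0.24 and 0.26, and AGBL3 had -0.03 and 0.04.

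RefSeq promoter windows on GRCh38.p14, 250 bases before to 50 bases after a start, were held for 5 of the 6 members, all but AKR1B10. Upstream of the start, AKR1C1 and AKR1C2 were 96.5% identical, while AKR1C1 and the windows of AKR1C3 were 71.4% and 69.2% identical. The antioxidant response element TGACNNNGC, bound by NRF2 with a small MAF partner, and the AP-1 site TGANTCA were searched on both strands. Neither was found in any window of a member, and 13.3% and 7.71% of 35116 promoter windows held them. These letters being absent from a short window says nothing of sites elsewhere.

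Other genes known for NRF2 were higher in part, and its regulators were lower in part. Of 24 targets outside the members, 8 rose and 1 fell in each comparison, and the medians on the log2 scale were 0.76 in NR and 0.78 in SP. The quinone reductase NQO1 rose by 1.58 (SE 0.05) in NR and 1.53 (SE 0.05) in SP (adjusted p = 7.4e-22 and 1.8e-20), from 1528, 2129 and 1633 counts in Ab to 3393 to 6106 in the gold libraries. PIR, an iron-binding nuclear protein, rose by 2.75 and 2.76 (SE 0.08 each, adjusted p = 2.9e-22 and 7.8e-22). SLC7A11, the cystine transporter, went the other way and fell, with log2 changes of -1.43 and -1.10 (adjusted p = 1.0e-17 and 7.2e-07). Of 10 regulators, 4 fell and none rose in both comparisons, with medians of -0.67 and -0.68. The 3 small MAF genes were among them, with log2 changes of -2.07 and -2.03 for MAFF, -1.21 and -1.22 for MAFG, and -1.14 and -1.27 for MAFK. The related factor NFE2L1 fell, with changes of -1.42 and -1.33 (adjusted p = 2.1e-21 and 4e-20). NFE2L2, which encodes NRF2 itself, had log2 differences of -0.40 and -0.48, the repressor BACH1 had -0.81 in both, and KEAP1, the adaptor for NRF2 degradation, had 0.10 and 0.11 (adjusted p = 0.15 and 0.12), none reaching 2-fold. The mRNA of a regulator is not its protein or its activity, which these libraries do not measure.

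**Figure D4:**
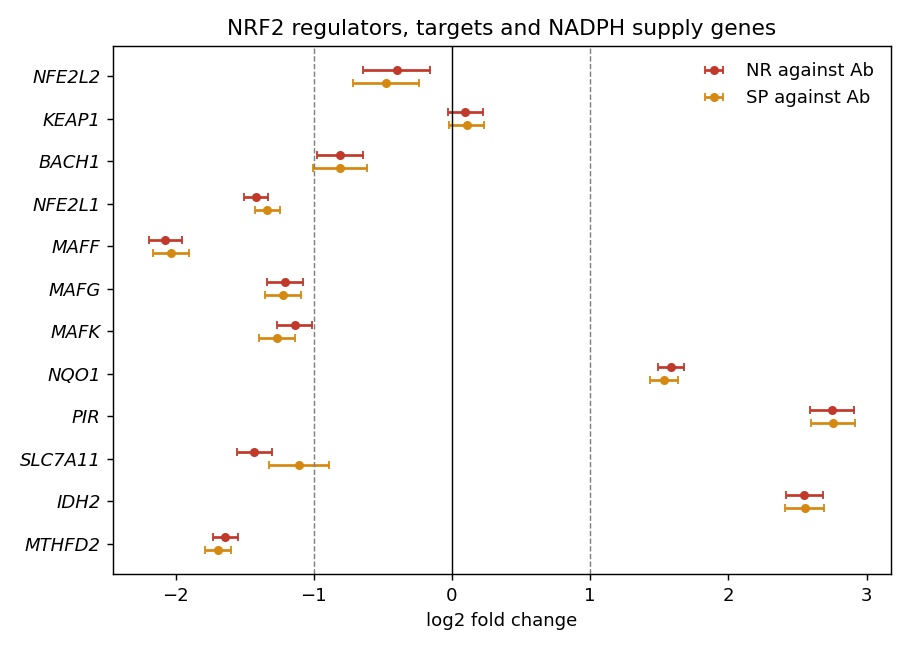
Log2 fold change against Ab (horizontal axis) with 95% intervals for NR (red) and SP (orange) in 12 genes of the NRF2 regulator, NRF2 target and NADPH supply lists. The points of the small MAF genes, NFE2L1, SLC7A11 and MTHFD2 lie left of the dashed line at a 2-fold fall. Those of NQO1, PIR and IDH2 lie right of the line at a 2-fold rise.

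The members consume NADPH, and 4 of 14 tested NADPH supply genes rose while 1 fell in both comparisons, with medians of 0.69 and 0.66. The mitochondrial isocitrate dehydrogenase IDH2 rose by 2.55 in both (SE 0.07 each), from 332 to 395 counts in Ab to 1292 to 2550 in the gold libraries. MTHFD2, a mitochondrial folate enzyme, fell, with changes of -1.64 and -1.69.

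Lists of other reductases and of genes of related metabolism were described next. Of the other carbonyl and quinone reductases, 9 of 17 tested rose and 1 fell in NR, and 9 of 18 rose and 1 fell in SP, with medians of 1.07 and 0.97. CRYZ, a quinone reductase, rose by 1.41 in both (adjusted p = 2.4e-18 and 1.4e-17), and the short-chain dehydrogenase DHRS1 rose by 1.46 and 1.55 (adjusted p = 6.1e-13 and 2.2e-13). The 1 that fell, DHRS2, had differences of -1.53 and -1.55 and was named after its values were seen. Of the steroid and prostaglandin genes, 9 of 19 tested rose in NR and 7 of 18 in SP, and none fell, with medians of 0.90 and 0.77. PTGS1, the constitutive cyclooxygenase, had 720 to 1315 counts in the gold libraries and 35, 60 and 52 in Ab, and rose by 4.50 (SE 0.10, adjusted p = 4.4e-24) and 4.40 (SE 0.13, adjusted p = 1.1e-19). HSD17B7, which acts in cholesterol and estradiol synthesis, rose by 1.92 and 1.76, and the steroid sulfatase STS rose by 1.11 and 1.09.

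Of 13 tested retinoid genes, 4 rose and 1 fell in both comparisons, with medians of 0.49 and 0.46. CYP26B1, which degrades retinoic acid, fell, with log2 changes of -2.53 and -2.39 (SE 0.07 each), and the retinol carrier RBP4 rose by 1.38 and 1.51. The retinol saturase RETSAT had -0.73 and -0.63, and the RBP4 receptor STRA6 had 0.90 in NR and rose by 1.09 in SP. In the polyol, glucuronate and methylglyoxal list, 4 of 9 tested rose and none fell, with medians of 0.70 and 0.79. SORD, which oxidizes the sorbitol that AKR1B1 makes, rose by 1.38 and 1.39 (SE 0.07 each, adjusted p = 7.8e-17 and 1.7e-16), UGP2 by 1.07 and 1.09, and the xylulose reductase DCXR by 1.19 and 1.14. AKR1B1 is also known as a gene of the osmotic response, and of the 4 genes of that list tested, 0 were called in NR and 1, HSPA4L, rose in SP by 1.01 (0.95 in NR). HSPA4L lies at the 2-fold limit, and the SP count became 0 without SP library 1 or 2 and 2 without SP library 3 or Ab library 3, while the NR count became 1 without Ab library 2. At an adjusted p of 0.05 alone, 4 of the 4 passed in NR and 1 in SP. Over all genes tested, 10916 of 15009 passed it in NR and 11002 of 15068 in SP. The osmotic transcription factor NFAT5 had -0.23 and 0.03, the taurine transporter SLC6A6 -0.13 and -0.11, and the inositol transporter SLC5A3 -0.17 and -0.05. In NR against SP, 0 genes of these lists were called. All of the lists were written with earlier results of these libraries known, so their counts stand as descriptions beside the shares of all genes given above.

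**Figure D5:**
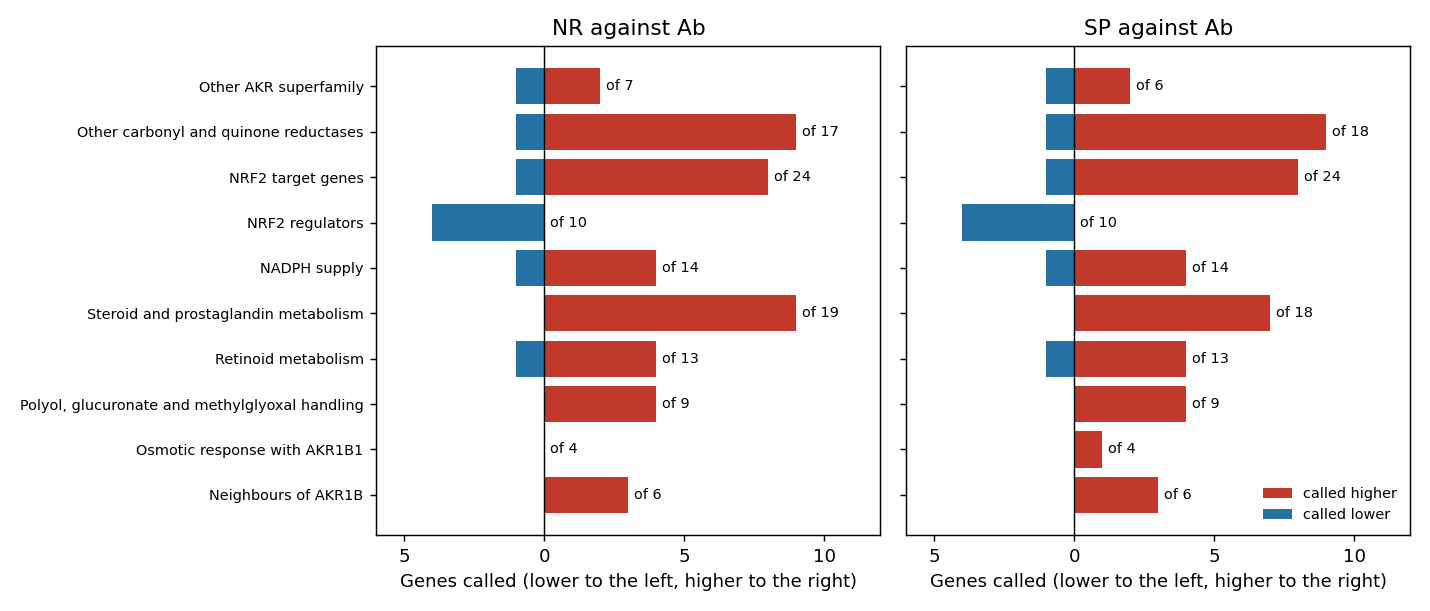
Numbers of genes called higher (red, to the right of 0) and lower (blue, to the left) in NR and SP against Ab for 10 gene lists, with the number tested beside each bar. The NRF2 regulators have 4 genes lower and 0 higher, and the steroid and prostaglandin list has 0 lower.

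The genes whose profile over the 9 libraries was most like that of a member were sought among 10741 genes with a mean of at least 100 counts, by the root mean square difference of centred log2 CPM. For AKR1C3 these were ALPG, a placental-type alkaline phosphatase, at 0.137 log2 units and PTGS1 at 0.148. CTSV and C1S were nearest to AKR1C2 (0.118 and 0.137), and F11R and ARHGAP18 to AKR1C1 (0.265 and 0.284). VAMP8 and CTSC were nearest to AKR1B1 (0.055 and 0.060), and DYNC2I2 and GNAI2 to AKR1A1 (0.025 and 0.031). The nearest genes to AKR1B10, B9D1 and PPFIBP2, were 0.41 and 0.42 away. With each of the 9 libraries left out in turn, CTSC was among the nearest 2 in 3 of 9 cases, GNAI2 in 2 and ARHGAP18 in 1. With 9 libraries that differ mainly between gold and Ab, such likeness is a description of these libraries.

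The label of the cells and other differences between the groups were checked with marker genes. Of 11 epithelial markers, 8 lay above the floor in every library, led by KRT8, and their summed level was 3476 to 3486 CPM in NR, 3544 to 3977 CPM in SP and 3006 to 3329 CPM in Ab. KRT19 had at most 1 count and CDH17 at most 2 in a library. Of 8 epithelial markers tested, 4 were called higher in both comparisons, KRT8, MUC1, EPCAM and CDH1, and 1, KRT7, fell in NR by 1.12 and had -0.93 in SP. The adhesion gene CDH1 had 79 to 159 counts in the gold libraries and 5, 5 and 9 in Ab. It passed the filter on low counts only through its gold libraries, so its call is not read as support. Of 6 fibroblast markers, 3 were called higher in both comparisons. LUM rose by 5.30 and 5.35. DCN had 280 to 518 counts in the gold libraries and 9, 21 and 7 in Ab, and PDGFRB had 150 to 320 and 10, 11 and 8, and both passed that filter only through the gold libraries. The summed fibroblast markers, with COL1A1 the most abundant, were 113, 108 and 105 CPM in NR, 112, 119 and 119 CPM in SP, and 45.4, 42.1 and 17.8 CPM in Ab. COL1A2 had 37, 0 and 0 counts in the NR libraries, 49, 49 and 43 in the SP libraries and 198, 278 and 33 in the Ab libraries. Of 5 endothelial markers, 4 were found by symbol and 2 could be tested, CDH5 and VWF. CDH5, the most abundant, rose by 2.35 in both comparisons. VWF had 21 to 34 counts in the gold libraries and 0, 0 and 1 in Ab, and was tested only through its gold counts. The list summed to 20.9 to 24.3 CPM in the gold libraries and 3.73 to 5.16 CPM in Ab. The 7 leukocyte markers summed to 2.12 to 3.22 CPM in the gold libraries and 1.13 to 2.05 CPM in Ab, with PTPRC at most 1 count in a library. All 4 hepatocyte markers, ALB and APOA1 among them, were at or under the floor in every library. Mitochondrial genes took 4.36% to 4.66% of counts in the gold libraries and 3.41% to 3.71% in Ab. The summed epithelial, fibroblast, endothelial and leukocyte markers were each higher in every gold library than in every Ab library. So were the counts of CDH1 and the mitochondrial share. COL1A2 was instead higher in 2 of the 3 Ab libraries than in any gold library. PTPRC and the hepatocyte markers stayed at or under the floor in every library. The part of these genes in the members' values was not tested. In bulk RNA, fewer cells of a type and less RNA per cell cannot be told apart.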

How the data were processed

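The deposited values are whole read counts per Ensembl gene, made by the authors with HISAT2 2.1.0 and not scaled between libraries. The study's reporting summary names the human genome hg19, its methods name no build, and the labels' processing notes name the mouse build mm9. The gene IDs are human. The counter is named differently in the methods and in the reporting summary, and whether counting used strand, the annotation release and any sequencing batch are not given in the sources used here. The labels also name DESeq2 1.16.1.

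Of 60880 IDs, 59899 were found in GENCODE release 44 on GRCh37, and the 981 without a match took up to 0.101% of the counts in a library. Each comparison used the 6 libraries of its 2 groups and edgeR 4.0.16 under R 4.3.3 (TMM scaling, filterByExpr with a minimum count of 10 and a minimum total of 15, robust quasi-likelihood test, Benjamini-Hochberg adjustment over all genes tested). Intervals of fold changes use the fitted standard error. Pooled ratios carry exact conditional intervals. In data simulated for the NR against Ab, SP against Ab and NR against SP comparisons, 100% of 200 genes changed 2.5-fold were recovered. The changed genes were drawn from well-counted genes only, and the same dispersion between libraries was set for every gene. The recovery therefore does not cover genes with few counts, such as AKR1B10 and AKR1C4. Within groups, the chi-square per gene between libraries was 1.84 to 7.44, more than sampling noise gives. The largest values were those of Ab library 1 with Ab libraries 2 and 3, at 7.44 and 6.95, while Ab libraries 2 and 3 gave 2.165. Each library was counted as 1 replicate, although this spread does not show that the cultures were separate. Coding sequences were aligned with Biopython 1.88.

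The members and gene lists were chosen with earlier results of these data known. Genes named are the members, the other AKR genes, NFE2L2, KEAP1, BACH1, the neighbours, the 3 smallest p-values of each list against Ab, and the 2 genes most like each member. Marker genes were taken from fixed lists and named after their values were seen. The 10 lists and the markers were written by hand. Alternatives were DESeq2 1.42.0, RLE scaling, other count filters, all 9 libraries in one fit, a replicate block, other fold minimums, the longest transcript as length, AKR1C counts summed, a prior count of 0.5, and each library left out. A few genes that the naming rule selects are left out of the text.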

Additional observations from a re-analysis of the deposited data

Results flagged for a closer look

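One value in the NR against SP comparison was singled out because the effect of the 2 particle shapes differed by a test of the difference itself. NFAT5, the osmotic transcription factor, was lower in NR than in SP, with a log2 difference of -0.27 (adjusted p = 0.047 in edgeR's quasi-likelihood test over all genes tested) and 1779, 1109 and 1222 counts in NR against 2129, 2020 and 1736 in SP. All 3 NR libraries lay below all 3 SP libraries after scaling. The difference is under 2-fold and was 1 of 66 genes that passed the adjusted p alone.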

How the results depend on the processing

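Members called against Ab numbered 4 or 5 in both comparisons under the alternatives run, the fifth being AKR1A1 at a fold minimum of 1.5 or none and AKR1B10 where a filter, tool or left-out library let it be tested. AKR1B10 passes a filter only through the gold libraries, so its call is not read as support. Under each alternative, 0 members were called in NR against SP. The number of genes called in NR against Ab (3409) became 10916 with no fold minimum and 6348 at 1.5-fold, and in SP against Ab (3502) 11002 and 6385, since more genes pass a lower fold. In NR against SP the 3 calls became 0 with DESeq2, 27 with a filter of 1 count, 66 with no fold minimum and 5 at 1.5-fold, and 0 to 28 with one library left out (28 without NR library 1, 0 without NR library 2, 1 without SP library 1, 5 without SP library 3), and the cause was not tested. AKR1B10 in NR against SP changed sign without SP library 1, and ranged from -0.79 to 0.067 with one library left out. The pooled AKR1B10 ratio against Ab ranged from 14.9 to 24.6 in NR and from 20.1 to 38.0 in SP with one library left out, and has no value without Ab library 2, which held the only Ab counts. With the replicate block, 3414 genes were called in NR against Ab, 3493 in SP against Ab and 4 in NR against SP. Same-numbered libraries had correlations of -0.123 to 0.062 in their deviations from the group mean. In SP and Ab they were 0.045, 0.062 and 0.046, above the different-numbered libraries at -0.050 to 0.0005. In NR and Ab they were -0.123, 0.005 and -0.084, beside -0.075 to 0.139 for different numbers. In NR and SP they were -0.012, -0.019 and -0.013, beside -0.013 to 0.028. Deviations within groups of 3 libraries are tied to one another, so these values do not settle whether the numbers pair the libraries. Log2 fold changes of AKR1C3 against Ab were 4.30 to 4.60 in NR and 4.22 to 4.54 in SP over 15 alternatives, the lowest with the 3 AKR1C counts summed. The osmotic list's calls became 1 in NR and 2 in SP with DESeq2 or a filter of 1 count, and 0 in SP with at least 10 counts in every library. With no fold minimum, calls either way rose from 9 to 24 in NR and from 9 to 22 in SP for the NRF2 targets. For the NRF2 regulators they rose from 4 to 9 in both comparisons, and for NADPH supply from 5 to 13 in both. The other AKR, carbonyl, steroid, retinoid and polyol lists also gained calls without a fold minimum. With a prior count of 0.5, B9D1, PPFIBP2 and ARHGAP18 were no longer among the 2 genes nearest to their member. Depth limits AKR1B10, AKR1C4 and the Ab values of AKR1C1 and AKR1C2, and the 3 libraries per group limit every interval.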
